A study of Mus musculus with 51 samples.

Results

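The interferon regulatory factors (IRFs) are a family of transcription factors, and 8 of its genes, Irf1, Irf2, Irf3, Irf4, Irf5, Irf7, Irf8 and Irf9, were followed here through every mouse tumor and cell library of an RNA-seq series on Uba1, the enzyme that starts the ubiquitin cascade. The members were taken by gene name, 8 of the 40077 genes in the expression tables, by a rule that uses no measured value. They were then parted by their level in cultured tumor cells: 5 members reached a level of at least 1 CPM in each of the 4 control cell libraries kept without IFN-γ, and 3 did not. CPM is the number of reads of a gene in a library brought to 1000000 reads, scaled here within each experiment by the trimmed mean of M-values (TMM).

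The series held 51 libraries, 35 of tumors and 16 of cultured cells. Myc-CaP is a prostate cancer line from a Myc-transgenic FVB mouse, and B16-BL6 is a melanoma line of C57BL/6 origin. All tumors were grown under the skin, Myc-CaP in FVB males and B16-BL6 in C57BL/6 females, in animals 6 to 8 weeks old with an intact immune system. Tumors were implanted in both flanks, so that tumors of a group can share a mouse, and the labels do not tie a tumor to its mouse. In the guide experiments, lines that expressed Cas9 with a guide against Uba1 (sgUba1) were compared with lines that carried a non-targeting guide (sgNC): 4 sgUba1 against 3 sgNC tumors of B16-BL6, and 7 tumors labelled sgUba1 against 3 sgNC tumors of Myc-CaP. The sgUba1 lines came from single cells and were depleted of Uba1 in part only, so a group is also a clone, and which guide a library carried is not given in the sources used here. In the overexpression experiment, 4 Myc-CaP tumors that expressed Uba1 from a lentiviral CMV promoter (Uba1 OE) were compared with 3 that carried the empty vector (EV). In the inhibitor experiment, 5 Myc-CaP tumors of mice given TAK-243, an inhibitor of UBA1, at 25 mg/kg were compared with 6 given vehicle. The cultured cells were Myc-CaP only. In the TAK-243 cell experiment, wild-type cells were left as controls or received 50 nM TAK-243, IFN-γ or both, and in the guide cell experiment, control (NC) and sgUba1 cells were kept with PBS or with IFN-γ, each with 2 libraries. IFN-γ was used at 1 ng/mL for 18 hours. No cultured B16-BL6 cells were among the libraries, so the split into members expressed by tumor cells and members low in them holds for Myc-CaP alone.

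IRFs share a DNA-binding domain that reads GAAA repeats. IRF1 is made when IFN-γ reaches its receptor, and it drives genes of antigen presentation, IRF2 binds the same sites and often opposes it, and IRF9 joins STAT2 in the complex that answers type I interferon. IRF3 is present before infection and is switched on by phosphorylation, IRF7 amplifies the type I interferon response, and IRF5 carries signals from Toll-like receptors in myeloid cells. IRF8 and IRF4 shape leukocyte lineages, IRF8 in macrophages and dendritic cells and IRF4 in lymphocytes and plasma cells, and IRF4 is also a gene of the melanocyte lineage.

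The files name each gene by symbol and Ensembl identifier, and their positions were read from GENCODE M21 on GRCm38. Irf1 lies at chr11:53770014-53778374, Irf2 at chr8:46739732-46847458, Irf3 at chr7:44997648-45002848 and Irf4 at chr13:30749226-30766976. Irf5 lies at chr6:29526625-29541871, Irf7 at chr7:141262706-141266481, Irf8 at chr8:120736358-120756694 and Irf9 at chr14:55603571-55610030. Irf7 is on the minus strand and the others are on the plus strand. Irf9 overlaps Rnf31 and Irf8 overlaps Gm20388 on the same strand, and Irf1, Irf2, Irf3, Irf5 and Irf7 overlap genes of the opposite strand. How strand was used in the counting is not given in the sources used here, so reads from overlapping stretches cannot be told apart, and Irf4 was the member with no overlapping gene.

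The promoters of the 8 members, taken from RefSeq on GRCm38.p6 as 250 bases before to 50 after a start site, were searched on both strands for the gamma-activated site of IFN-γ genes (GAS, TTCNNNGAA) and for the element read by IRFs and by the complex of IRF9 (ISRE, GAAANNGAAA). Of 32851 promoters, 8.3% held the GAS letters and 3.44% held the ISRE letters. Among the members, Irf1, Irf2 and Irf8 held a match in the first listed promoter, and no match was found in these windows for the other 5 members. The windows of Irf1 and Irf8 are shown because these genes changed most with IFN-γ in the wild-type cells, though Irf8 was not called in the NC cells, that of Irf2 because it held both motifs, and that of Irf7 because it was close to absent from the cells. Capitals mark the motif matches, and a match is a description of letters only.
Irf1, chr11:53769764-53770063, plus strand: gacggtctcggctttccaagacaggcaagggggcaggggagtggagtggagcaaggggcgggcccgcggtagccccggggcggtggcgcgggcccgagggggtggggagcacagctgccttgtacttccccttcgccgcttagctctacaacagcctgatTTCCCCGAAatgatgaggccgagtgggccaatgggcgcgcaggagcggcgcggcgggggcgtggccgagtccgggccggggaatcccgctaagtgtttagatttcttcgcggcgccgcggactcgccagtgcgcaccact
Irf8, chr8:120736108-120736407, plus strand: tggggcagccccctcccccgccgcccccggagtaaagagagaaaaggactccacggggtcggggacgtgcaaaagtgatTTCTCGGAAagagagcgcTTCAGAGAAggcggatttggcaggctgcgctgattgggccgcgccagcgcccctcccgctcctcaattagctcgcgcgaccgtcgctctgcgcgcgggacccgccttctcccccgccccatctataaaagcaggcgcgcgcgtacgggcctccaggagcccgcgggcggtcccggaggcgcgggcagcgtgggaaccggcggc
Irf2, chr8:46739495-46739794, plus strand: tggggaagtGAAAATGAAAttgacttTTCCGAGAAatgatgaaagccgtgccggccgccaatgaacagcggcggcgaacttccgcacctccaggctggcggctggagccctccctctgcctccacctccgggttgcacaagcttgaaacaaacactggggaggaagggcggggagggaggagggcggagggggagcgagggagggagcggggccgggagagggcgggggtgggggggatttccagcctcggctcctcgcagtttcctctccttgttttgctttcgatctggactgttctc
Irf7, chr7:141266375-141266674, minus strand: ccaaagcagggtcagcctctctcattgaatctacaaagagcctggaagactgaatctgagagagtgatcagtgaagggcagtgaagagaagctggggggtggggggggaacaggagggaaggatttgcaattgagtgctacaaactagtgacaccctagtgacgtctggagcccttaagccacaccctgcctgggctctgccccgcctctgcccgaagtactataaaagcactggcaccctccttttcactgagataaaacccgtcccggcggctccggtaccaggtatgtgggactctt
In the Irf1 window the match ran from base -90 to base -82, counted from the start site at 0. In the Irf8 window the matches ran from -171 to -163 and from -153 to -145, and in the Irf2 window the ISRE match ran from -241 to -232 and the GAS match from -224 to -216.

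Library totals ranged from 8651963 to 38032284 counts, and the overexpression and Myc-CaP guide tumors were the shallowest. Uba1 followed the labels in the B16-BL6 tumors (log2 fold change -0.92, adjusted p = 0.000294) and in the Uba1 OE tumors (1.27, adjusted p = 0.00503), both by edgeR's quasi-likelihood test. It did not in the Myc-CaP guide tumors, where Uba1 stood at 197, 202, 211, 373, 361, 368 and 383 CPM in the tumors labelled sgUba1 and at 320, 325 and 337 CPM in the sgNC tumors. In 4 of these 7 tumors Uba1 was thus above every control, and results of this experiment are given with and without them. In the cultured cells Uba1 followed the guide labels. Its log2 fold change in sgUba1 against NC cells was -0.87 without IFN-γ (edgeR, adjusted p = 3.71e-07) and -1.13 with it (edgeR, adjusted p = 5.06e-08). Ptprc, which encodes the pan-leukocyte antigen CD45, was at most 0.141 CPM in the cultured cells, and the macrophage genes Adgre1, C1qb and C1qc had no count in any cell library. The summed level of 11 macrophage markers ran from 108 to 509 CPM in tumors and from 12.6 to 24.0 CPM in cells. The epithelial genes Krt8, Krt18 and Epcam, taken as markers of the prostate line, were low in the cultured cells: their sum was 2.09 to 16.95 CPM, and Epcam had no count in 4 of the 8 cell groups. The sum was 26.3 to 330 CPM in Myc-CaP tumors, nearly all of it Krt8, and at most 0.235 CPM in B16-BL6 tumors. In B16-BL6 tumors the melanocyte genes Mlana, Tyr, Dct, Pmel, Sox10 and Mitf were all above 1 CPM on average. Bulk libraries cannot tell fewer cells of a type from less RNA per cell, and where nothing says that replicates came from separate cultures or mice, p-values measure only the spread between these libraries.

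The members differed widely in level in tumor cells grown alone. Levels between genes are compared in TPM, the number of transcripts of a gene among 1000000 transcripts, which divides by transcript length. In the 4 unstimulated control cell libraries Irf3 was highest, at 44.1 to 55.2 TPM, followed by Irf2 at 32.5 to 40.4 TPM, Irf1 at 19.4 to 22.6 TPM, Irf9 at 3.31 to 3.91 TPM and Irf8 at 0.636 to 1.85 TPM. The ranges of these 5 neighbours did not overlap. Irf7 was at 0 to 0.353 TPM, Irf4 at 0 to 0.139 TPM and Irf5 at 0 in all 4 libraries, and the order of these last members could not be read. Irf8 lay closest to the threshold that made the split, with 1.11 to 3.38 CPM from 34 to 53 reads, whereas Irf4, the nearest member outside it, reached at most 0.437 CPM from 7 reads.

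In tumors the order was different. Over the 12 Myc-CaP control tumors the median level was 56.3 TPM for Irf2, 52.6 TPM for Irf3 and 48.7 TPM for Irf1, and the ranges of these 3 members overlapped. Irf8 had a median of 11.9 TPM, Irf9 of 10.6 TPM, Irf7 of 7.66 TPM and Irf5 of 3.82 TPM, while Irf4 stayed lowest at 0.314 TPM. Irf7 therefore went from 0 to 9 reads in any of the 16 cell libraries to 16 to 387 reads in each of the 28 Myc-CaP tumors, and Irf5 from 0 to 4 reads to 25 to 163 reads. A count of 0 allows up to 3 reads, which is 0.0822 to 0.241 CPM in these cell libraries, counting error only. Irf4 behaved otherwise: its highest values, 2.10 to 5.96 TPM, were in the 7 B16-BL6 tumors, all above the 0.103 to 1.98 TPM of the 28 Myc-CaP tumors. Irf8 was the reverse, with 1.004 to 3.10 TPM in B16-BL6 against 4.63 to 22.5 TPM in Myc-CaP tumors. These differences between lines and between cells and tumors cross experiments, so they are descriptions with no test. The hosts of the lines also differed in strain and sex, which cannot be told apart from the line.

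**Figure D1:**
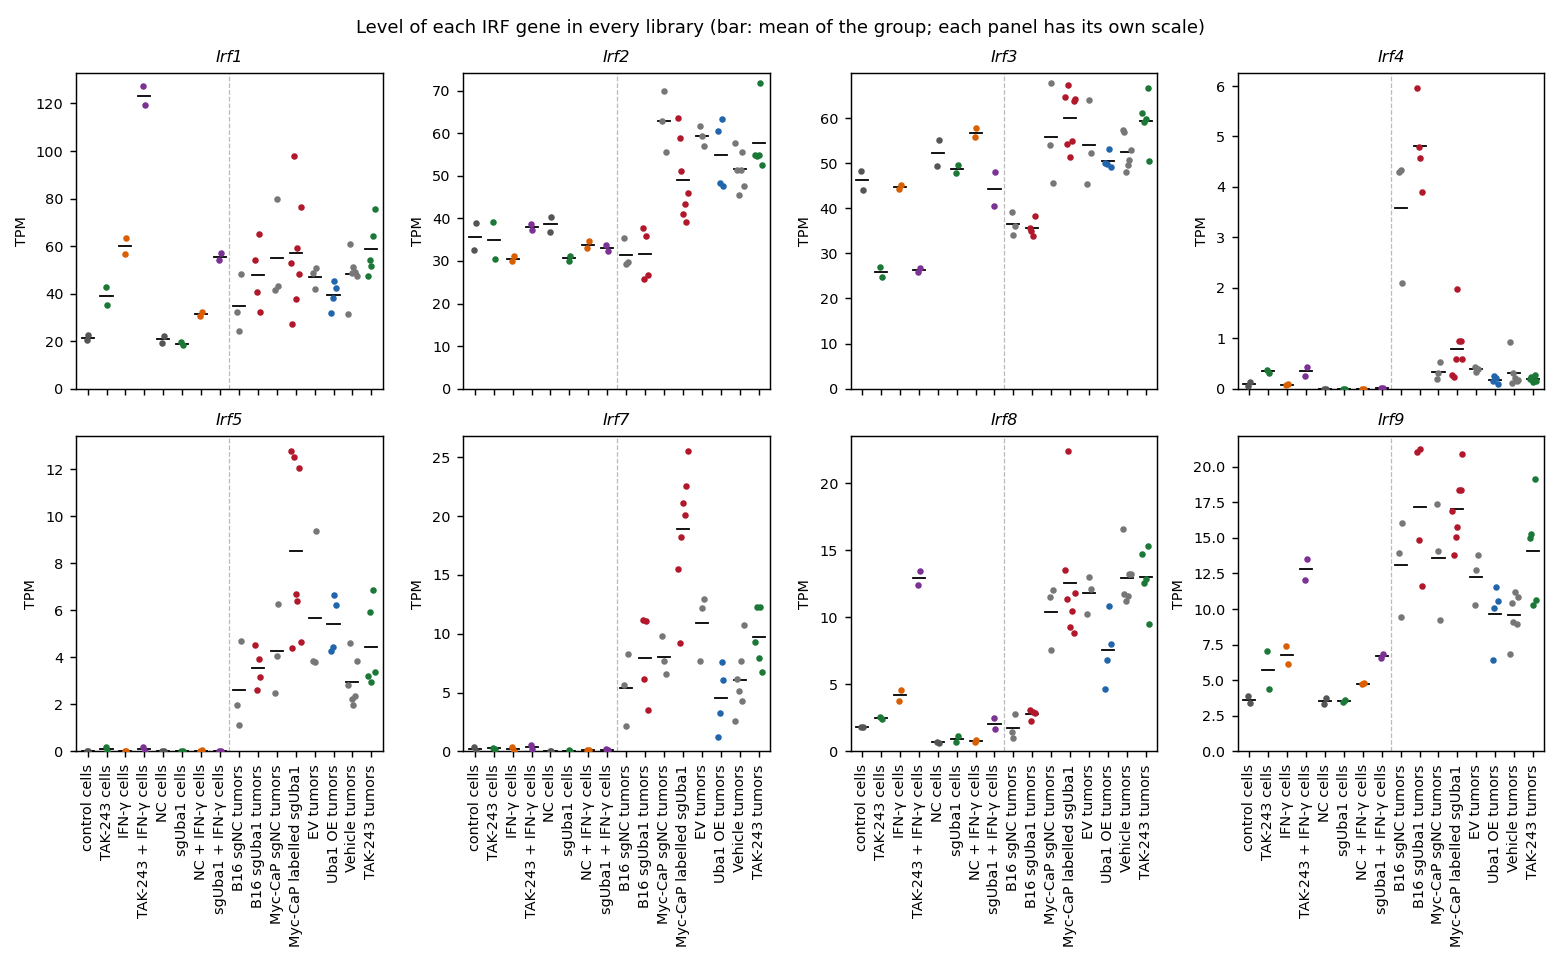
TPM of the 8 IRF genes (y axis, linear, a scale for each panel) in the 8 cell groups and, right of the dashed line, the 8 tumor groups; points are libraries and bars are group means. Irf5 and Irf7 lie close to 0 in cells and above 1 TPM in each tumor, and Irf4 is highest in the B16-BL6 tumors.

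The first question in cells was which members answer IFN-γ. In control cells of the TAK-243 experiment Irf1, Irf8 and Irf9 rose, which is 3 of the 6 members tested, and no member fell. Irf1 stood at 25.9 and 24.7 CPM in control cells and at 74.9 and 80.8 CPM with IFN-γ, a log2 fold change of 1.63 ± 0.07 (SE, 2 against 2 libraries; edgeR, adjusted p = 6.67e-17). Irf8 went from 3.38 and 3.25 CPM to 7.89 and 9.05 CPM (1.35 ± 0.16, edgeR, adjusted p = 2.35e-07). Irf9 went from 6.26 and 5.62 CPM to 13.7 and 11.7 CPM (1.09 ± 0.15, edgeR, adjusted p = 1.28e-06). For each of these members both stimulated libraries lay above both controls. The share of all genes parted in this way was not counted. Here and below, a lack of overlap between groups is therefore a description of the values only. Irf2, at 30.1 and 33.4 CPM against 34.9 and 33.5 CPM, did not pass the test (0.10 ± 0.08, edgeR, adjusted p = 0.373). Irf3, at 35.4 and 32.7 CPM against 36.3 and 43.0 CPM, did not pass either (0.22 ± 0.09, edgeR, adjusted p = 0.0684). Of all 14551 genes tested, 19.6% were called higher and 9.39% lower. That split turned on the scale: on log2(TPM + 1), where the median of all genes shifted by -0.18, 190 genes were called higher and 2652 lower, and Irf1, Irf8 and Irf9 were called higher there as well.

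In the control (NC) cells of the guide experiment the same stimulus gave smaller values. Irf1 stood at 24.0 and 24.5 CPM with PBS and at 37.6 and 38.1 CPM with IFN-γ (0.64 ± 0.07, edgeR, adjusted p = 0.000968). Irf9 went from 5.79 and 6.47 CPM to 8.18 and 8.45 CPM (0.44 ± 0.10, edgeR, adjusted p = 0.0414), and Irf8 was at 1.33 and 1.11 CPM against 1.22 and 1.65 CPM (0.25 ± 0.25, edgeR, adjusted p = 0.58). Thus 2 of 5 members tested rose, beside 3.03% of all genes called higher and 0.856% lower. The Irf9 call was lost without any of 7 of the 8 libraries of the experiment taken out in turn (adjusted p 0.0567 to 0.267), in DESeq2 (adjusted p = 0.147) and in limma-voom (adjusted p = 0.0519). Under another scaling of the counts, relative log expression (RLE), 192 genes were called higher and 100 lower in place of 470 and 133, and Irf9 was no longer called (adjusted p = 0.0557). The NC cells carried a guide vector and the wild-type controls did not, and the 2 sets of libraries belong to separate experiments, so the guide vector and the experiment cannot be told apart as sources of the smaller values.

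TAK-243 itself also changed members of the family. Without IFN-γ, Irf1, Irf8 and Irf9 rose and Irf3 fell, 4 of the 5 members with enough reads in every arm. Irf1 went from 25.9 and 24.7 CPM to 47.6 and 41.9 CPM (0.83 ± 0.07, edgeR, adjusted p = 2.91e-11). Irf3 fell from 35.4 and 32.7 CPM to 17.2 and 14.0 CPM (-1.11 ± 0.10, edgeR, adjusted p = 1.05e-10), and both treated libraries lay below every other library of the experiment outside the TAK-243 arms. Irf9 went from 6.26 and 5.62 CPM to 10.3 and 7.62 CPM (0.62 ± 0.16, edgeR, adjusted p = 0.00104). Irf8 went from 3.38 and 3.25 CPM to 4.66 and 4.49 CPM (0.47 ± 0.19, edgeR, adjusted p = 0.0289). Irf4 went from 3 and 7 reads to 19 and 13 reads (edgeR, adjusted p = 0.008), but it passed the filter on low counts only through the arms with TAK-243, where it was high, and is not counted among the members that rose. These calls need reading against the whole transcriptome, since 32.3% of all genes were called higher and 34% lower: a called member was the common case. Among leukocyte markers, Cd68 (1.69), Csf1r (1.78), Lck and Cd79a were called higher as well, each from a mean of at most 1.48 CPM in control cells, and their part in the IRF values was not tested. The Irf8 call was lost in DESeq2 (adjusted p = 0.0975), in limma-voom (0.0632) and without any library of the control, TAK-243 or combined arms (0.0586 to 0.175). The Irf9 call was lost without TAK-243 replicate 1 (0.182), and the Irf4 call without control replicate 1 (0.105) or TAK-243 replicate 1 (0.0673).

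With IFN-γ present, Irf1, Irf2, Irf8 and Irf9 were higher and Irf3 lower with TAK-243, each of the 5 members with enough reads in every arm. Irf1 reached 139 and 144 CPM, its highest level in any cell group, against 74.9 and 80.8 CPM with IFN-γ alone (0.86 ± 0.05, edgeR, adjusted p = 7.29e-15). Irf8 stood at 20.5 and 20.3 CPM against 7.89 and 9.05 CPM (1.26 ± 0.12, edgeR, adjusted p = 1.89e-10). Per length this was 12.4 and 13.4 TPM, inside the 4.63 to 22.5 TPM of the Myc-CaP tumors. Irf9 stood at 20.3 and 21.6 CPM against 13.7 and 11.7 CPM (0.73 ± 0.12, edgeR, adjusted p = 4.23e-06). Irf3 stood at 16.7 and 17.1 CPM against 36.3 and 43.0 CPM, a log2 fold change of -1.23 ± 0.10 (edgeR, adjusted p = 4.88e-12). In the combined arm Ptprc was at 0 and 0.141 CPM, and Adgre1, C1qa, C1qb, C1qc and Fcgr1 had no count. The summed macrophage markers were at 19.2 to 24.0 CPM there and at 15.0 to 16.3 CPM with IFN-γ alone, and 1 of the 4 tested, the lysosomal gene Cd68, was called higher (1.88, edgeR, adjusted p = 8.06e-08). Also called higher were 2 of 4 T cell, 1 of 2 B and plasma cell and 0 of 2 dendritic cell markers tested. The part of these genes in the IRF values was not tested. Irf2 differed least, 40.7 and 39.3 CPM against 34.9 and 33.5 CPM (0.23 ± 0.08, edgeR, adjusted p = 0.012), and its call was lost without IFN-γ replicate 2 (0.0896) or combined replicate 1 (0.074). Irf4, again tested only through its reads in the TAK-243 arms, had 12 and 23 reads against 4 and 5 (edgeR, adjusted p = 0.00511), a call lost without combined replicate 2 (0.109). Among all genes 32% were called higher and 36.2% lower, and on log2(TPM + 1) the balance of calls turned to 5247 higher and 3728 lower. None of the 6 members differed in its TAK-243 response between cells with and without IFN-γ at the threshold (edgeR interaction test; 0.371% of all genes higher and 2.01% lower, 2154 genes at an unadjusted p under 0.05), Irf8 coming closest at 0.79 ± 0.23 (adjusted p = 0.0571). DESeq2, limma-voom and the other fits of that interaction gave 0 members as well.

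Depletion of Uba1 in the cells gave a different picture without IFN-γ. None of the 5 members tested was called in sgUba1 against NC cells by edgeR, beside 16.2% of all genes higher and 13.6% lower, although 2 members, Irf1 and Irf2, had an unadjusted p under 0.05. Irf1 stood at 22.6 and 20.3 CPM against 24.0 and 24.5 CPM (-0.18 ± 0.07, edgeR, adjusted p = 0.0742), and Irf2 at 33.2 and 34.5 CPM against 35.6 and 43.0 CPM (-0.22 ± 0.08, edgeR, adjusted p = 0.0705). DESeq2, limma-voom and RLE scaling called no member here either, and 6153 of all genes had an unadjusted p under 0.05. Irf2 was called lower without NC replicate 1 (adjusted p = 0.000683), without the filter on low counts (0.0293), on log2(TPM + 1) (0.0192) and with the replicate number as a block (0.0478), and Irf1 without sgUba1 replicate 1 (0.0322). Irf3, the member that fell under TAK-243, was at 37.1 and 38.2 CPM in sgUba1 and at 37.3 and 40.2 CPM in NC cells (-0.04 ± 0.06, edgeR, adjusted p = 0.659).

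With IFN-γ, the sgUba1 cells exceeded NC cells in Irf1, Irf8 and Irf9 and were lower in Irf3, 4 of 5 members tested, where 17% of all genes were higher and 22.4% lower. Irf1 was at 64.1 and 66.8 CPM against 37.6 and 38.1 CPM (0.79 ± 0.06, edgeR, adjusted p = 3.64e-06). Irf8 was at 3.59 and 3.10 CPM against 1.22 and 1.65 CPM (1.21 ± 0.21, edgeR, adjusted p = 0.000787). Irf9 was at 10.8 and 11.2 CPM against 8.18 and 8.45 CPM (0.40 ± 0.09, edgeR, adjusted p = 0.00456). For these members no sgUba1 library overlapped the NC libraries, and the share of all genes without overlap was not counted. Irf3 was at 35.2 and 36.3 CPM against 44.3 and 44.8 CPM (-0.32 ± 0.06, edgeR, adjusted p = 0.00113), a smaller difference than under TAK-243, and the difference between those effects was not tested.

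The interaction of guide and IFN-γ was called for Irf1 alone among the 5 members tested, by 0.96 ± 0.09 on the log2 scale (edgeR, adjusted p = 0.00089): IFN-γ went with a larger step in Irf1 in sgUba1 than in NC cells. Of all genes 0.663% had a higher and 3.97% a lower interaction. Irf9 (0.52 ± 0.14, adjusted p = 0.0584), Irf8 (1.13 ± 0.33, adjusted p = 0.0743) and Irf3 (-0.28 ± 0.08, adjusted p = 0.0824) did not pass the edgeR threshold. Leaving out NC replicate 1 added Irf9 (0.0253), and leaving out NC replicate 2 added Irf8 (0.0373) and Irf3 (0.00675). The Irf1 interaction was 0.94 on log2(TPM + 1) with an adjusted p of 0.0501 by limma. All comparisons within a cell experiment share libraries, so their values stand side by side and are not independent.

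**Figure D2:**
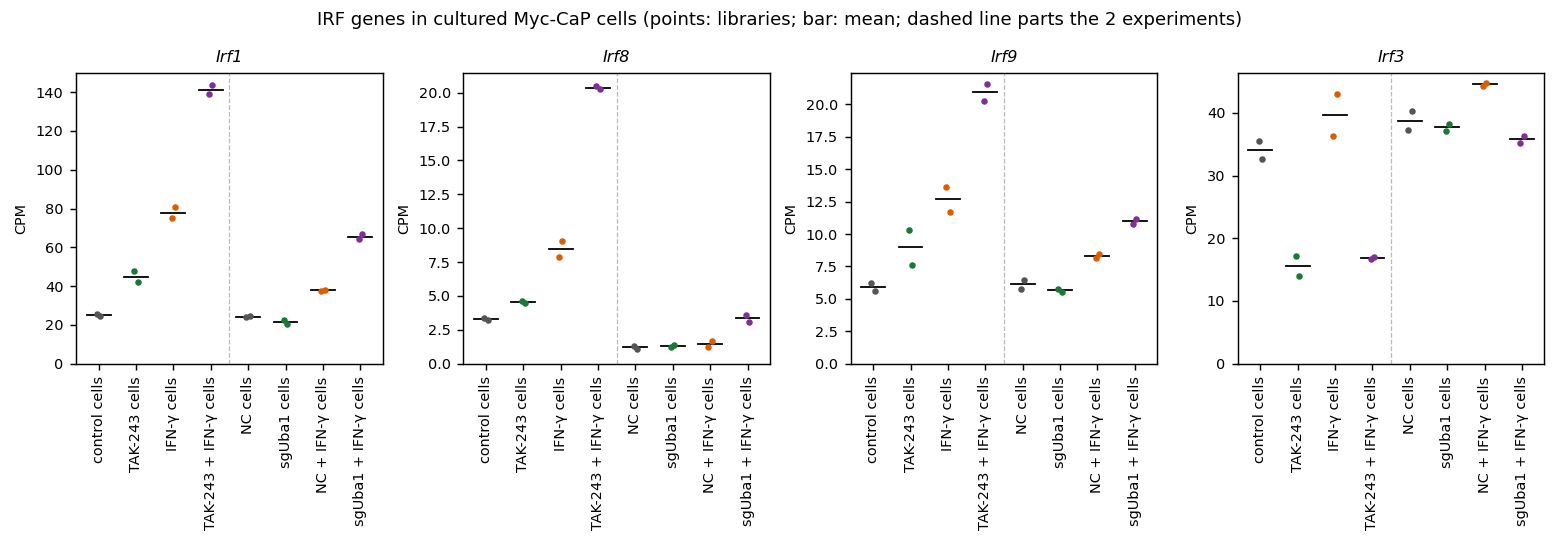
CPM (y axis, from 0) of Irf1, Irf8, Irf9 and Irf3 in the 8 groups of cultured Myc-CaP cells, the TAK-243 experiment left and the guide experiment right of the dashed line; points are libraries and bars means. Irf1, Irf8 and Irf9 are highest with TAK-243 and IFN-γ together, and Irf3 is lowest in the 2 arms with TAK-243.

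The members low in cells stayed at or below 1.44 CPM under each stimulus. Irf7, the amplifier of the type I interferon response, had 5 and 0 reads in control cells, 5 and 1 with IFN-γ, 6 and 3 with TAK-243 and 9 and 4 with both. In the guide experiment it had 0 and 3 reads in NC cells, 2 and 5 in NC cells with IFN-γ, 3 and 1 in sgUba1 cells and 7 and 4 in sgUba1 cells with IFN-γ. All of these were at most 0.633 CPM, too few for the filter on low counts, so Irf7 was not tested in cells and a change could not be seen at this depth. Irf5 had reads in 3 of the 16 libraries, 4 at most. Irf4 was detected in the TAK-243 experiment, with 3 to 23 reads, and had 0 reads in NC and sgUba1 cells except for 1 read in each sgUba1 library with IFN-γ.

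In tumors no member passed the test in any of the 4 comparisons by edgeR, so the values that follow are differences that did not reach the threshold. The share of all genes whose groups did not overlap was not counted in tumors either. In B16-BL6 tumors 7 of 8 members had a positive log2 fold change in sgUba1 against sgNC (median 0.45, against 0.01 over all 17539 genes), beside 0.268% of all genes called higher and 0.456% lower. Irf4 was at 16.6, 12.7, 13.5 and 12.2 CPM in sgUba1 and at 10.7, 10.9 and 6.71 CPM in sgNC tumors, with no overlap (0.54 ± 0.18, edgeR, adjusted p = 0.196). The melanocyte markers went the other way, with a median of -0.14 over 6 genes and 2 of 6 positive. Irf8 was at 4.97, 4.23, 5.29 and 4.95 CPM against 2.71, 1.94 and 4.49 CPM (0.68 ± 0.25, edgeR, adjusted p = 0.229), and its value ran from 0.43 without sgNC replicate 2 to 1.07 without sgNC replicate 4, where it was called higher (adjusted p = 0.038). Irf5 was at 4.62, 2.89, 3.54 and 3.84 CPM against 2.12, 1.42 and 3.37 CPM (0.70 ± 0.28, edgeR, adjusted p = 0.257), and its value ran from 0.44 to 1.08 without the same libraries. The members Irf4, Irf5 and Irf8 had an unadjusted p under 0.05 here, as did 2861 of all genes, and 0 members were called by DESeq2 or limma-voom. Ptprc was at 4.48 to 9.42 CPM in sgNC and 10.3 to 11.6 CPM in sgUba1 tumors, and all 11 macrophage markers had a positive fold change. The part of these cells in the IRF values was not tested.

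In the Myc-CaP guide tumors Irf7 and Irf5 came closest to the threshold. Irf7 was at 15.9, 10.3, 19.7, 26.6, 25.3, 27.8 and 31.3 CPM in the tumors labelled sgUba1 and at 11.4, 8.56 and 7.88 CPM in sgNC tumors, and 6 of the 7 lay above every control (1.27 ± 0.32, edgeR, adjusted p = 0.0611). Irf5 was at 6.97, 5.49, 10.6, 6.36, 7.36, 5.59 and 6.48 CPM against 3.26, 4.23 and 3.46 CPM, with no overlap (0.93 ± 0.23, edgeR, adjusted p = 0.0524). Irf2 was lower in every tumor labelled sgUba1, at 34.7 to 48.4 CPM against 49.4 to 55.2 CPM (-0.33 ± 0.11, edgeR, adjusted p = 0.118). Irf1 overlapped fully, at 30.5 to 89.5 CPM against 41.8 to 80.4 CPM (0.08 ± 0.32, edgeR, adjusted p = 0.908). Replicate 2 of the sgNC tumors stood apart: it gave the 80.4 CPM of Irf1, its Krt8, Krt18 and Epcam summed to 330 CPM against 42.1 and 47.7 CPM in the other controls, and its chi-square per degree of freedom was 80.8 and 60.0 against them, which were at 12.8 from each other. Without it the values were 0.43 for Irf1, 0.07 for Irf8, 1.04 for Irf5 (adjusted p = 0.144) and 1.21 for Irf7 (adjusted p = 0.212), no member was called, and 10 in place of 492 genes were called. By chi-square per degree of freedom the tumors labelled sgUba1 also parted. Replicates 1 to 3 were at 9.86 to 22.3 from each other, and replicates 4 to 7 at 9.44 to 14.4. Between these sets the values were 59.2 to 84.8. Replicates 4 to 7 are the tumors with Uba1 above every control, and the test took all 7 as replicates of the same group. Over all 16202 genes 1.15% were called higher and 1.89% lower. DESeq2 called 3 members, Irf7 higher (adjusted p = 0.00305), Irf5 higher (0.00452) and Irf2 lower (0.0452), while limma-voom called 0, and 3835 of all genes had an unadjusted p under 0.05. With RLE scaling Irf5 passed in edgeR (adjusted p = 0.0491). Without replicate 2 of the tumors labelled sgUba1, Irf7 (1.39, adjusted p = 0.0232) and Irf5 (0.98, adjusted p = 0.0412) passed in edgeR, and without replicate 3 Irf5 passed (0.81, adjusted p = 0.038).

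Without the 4 tumors whose Uba1 lay above every control, an alternative added after the data were seen, 3 tumors labelled sgUba1 remained and no member was called. Irf5 then stood at 1.07 ± 0.29 (edgeR, adjusted p = 0.152), Irf7 at 0.71 ± 0.27 (edgeR, adjusted p = 0.234), where it had been 1.27. Irf9 went from 0.39 ± 0.20 (edgeR, adjusted p = 0.272) to 0.11 ± 0.21 (adjusted p = 0.81), Irf2 from -0.33 to -0.20 ± 0.09 (adjusted p = 0.301) and Irf8 from 0.25 to 0.42 ± 0.28 (adjusted p = 0.456). Irf1 was at 0.05 (adjusted p = 0.959) and Irf3 at -0.063 (adjusted p = 0.827). Only 1 of 15679 genes was called in that smaller fit, and Irf4 was not tested in it. Over all 7 tumors Irf8 did not separate the groups, at 16.4 to 32.2 CPM against 12.9 to 20.6 CPM (0.25 ± 0.22, edgeR, adjusted p = 0.532). Ptprc was at 15.98 to 38.6 CPM in the tumors labelled sgUba1 and at 12.02 to 16.4 CPM in sgNC tumors. The macrophage genes Adgre1 (1.15, adjusted p = 0.0276), Cd68 (0.83, adjusted p = 0.03) and C1qa (0.82, adjusted p = 0.03) were called higher, 3 of 11 macrophage markers, and the part of macrophages in Irf5 and Irf7 was not tested.

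The Uba1 OE tumors gave mostly negative values, 6 of the 7 members tested lying below 0 (median -0.25, against 0.00 over all 14853 genes), none of them called. Irf7 was at 1.59, 4.09, 9.05 and 7.17 CPM in Uba1 OE and at 8.96, 13.9 and 14.7 CPM in EV tumors (-1.19 ± 0.47, edgeR, adjusted p = 0.246). Irf8 was at 8.72, 12.1, 17.2 and 10.5 CPM against 16.3, 17.9 and 20.5 CPM (-0.58 ± 0.23, edgeR, adjusted p = 0.237), and in both genes a single Uba1 OE tumor reached into the control range. Irf2 was the positive member, at 45.4 to 52.0 CPM against 43.0 to 46.2 CPM (0.13 ± 0.09, edgeR, adjusted p = 0.471), and it turned to -0.12 on log2(TPM + 1). Irf5 was at 2.48 to 5.87 CPM against 5.03 to 7.09 CPM (-0.53 ± 0.32, edgeR, adjusted p = 0.402), a value that became 0.02 on log2(TPM + 1). Irf4, with 3 to 12 reads, was not tested. Only 0.0202% of all genes were called higher and 0.00673% lower, while 2698 genes and 2 members, Irf7 and Irf8, had an unadjusted p under 0.05, and DESeq2 and limma-voom called 0 members. Ptprc moved with the groups here too, 7.14 to 16.3 CPM in Uba1 OE against 14.6 to 22.7 CPM in EV tumors, and its part was not tested.

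In the tumors of mice given TAK-243, Irf7, Irf5 and Irf9 had the largest positive values. Irf9 was at 19.7, 21.5, 16.7, 26.5 and 17.2 CPM against a lowest, median and highest vehicle value of 11.6, 15.3 and 17.3 CPM (0.43 ± 0.13, edgeR, adjusted p = 0.183). Irf7 was at 10.1, 13.8, 9.14, 12.6 and 8.59 CPM against 3.12 to 12.1 CPM with a median of 6.63 CPM (0.59 ± 0.28, edgeR, adjusted p = 0.347). Irf5 was at 3.97, 5.39, 3.30, 5.67 and 2.77 CPM against 2.54 to 3.98 CPM (0.45 ± 0.20, edgeR, adjusted p = 0.311). In all 3 members the groups overlapped. Irf1 was at 46.8 to 82.4 CPM against 37.3 to 61.3 CPM (0.22 ± 0.15, edgeR, adjusted p = 0.499). Irf3, which fell in cultured cells under the compound, was at 37.3 to 41.2 CPM in TAK-243 and 34.4 to 40.8 CPM in vehicle tumors (0.06 ± 0.07, edgeR, adjusted p = 0.719), and Irf8 was at 16.3 to 21.9 CPM against 18.1 to 26.2 CPM (-0.11 ± 0.11, edgeR, adjusted p = 0.674). Of all genes 0.0867% were called higher and 0.0578% lower, with 2587 genes and 2 members, Irf5 and Irf9, at an unadjusted p under 0.05, and DESeq2 and limma-voom called 0 members. Ptprc was at 7.72 to 18.2 CPM in TAK-243 and 7.27 to 11.6 CPM in vehicle tumors. The summed macrophage markers were at 191 to 374 CPM against 152 to 204 CPM, and 1 of 11, Itgam, was called higher (0.82, edgeR, adjusted p = 0.0488), and their part in the IRF values was not tested.

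**Figure D3:**
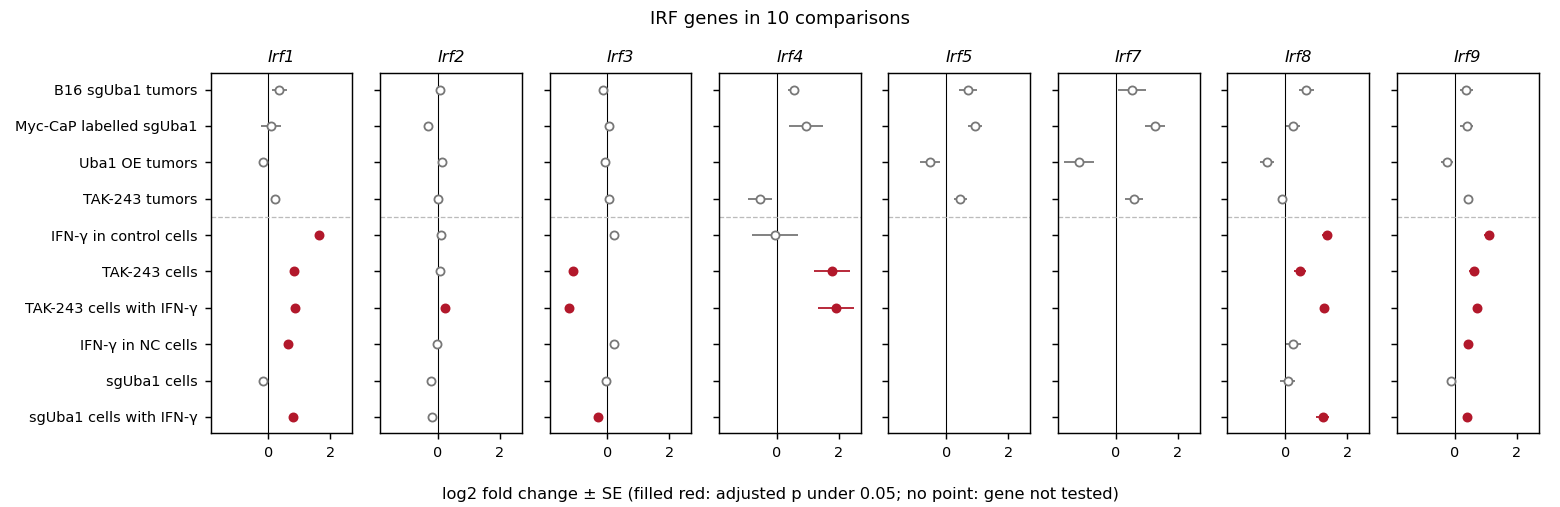
Log2 fold change with its SE (x axis) of the 8 IRF genes in 10 comparisons (y axis), tumors above and cells below the dashed line; filled red points passed an adjusted p of 0.05 by edgeR, and no point means not tested. The calls lie in the cell comparisons only, with Irf3 lower and Irf1, Irf2, Irf4, Irf8 and Irf9 higher. Irf2 is called only for TAK-243 with IFN-γ. Irf4 is called only for TAK-243, with and without IFN-γ, and passed the filter on low counts only through the arms with TAK-243.

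**Figure D4:**
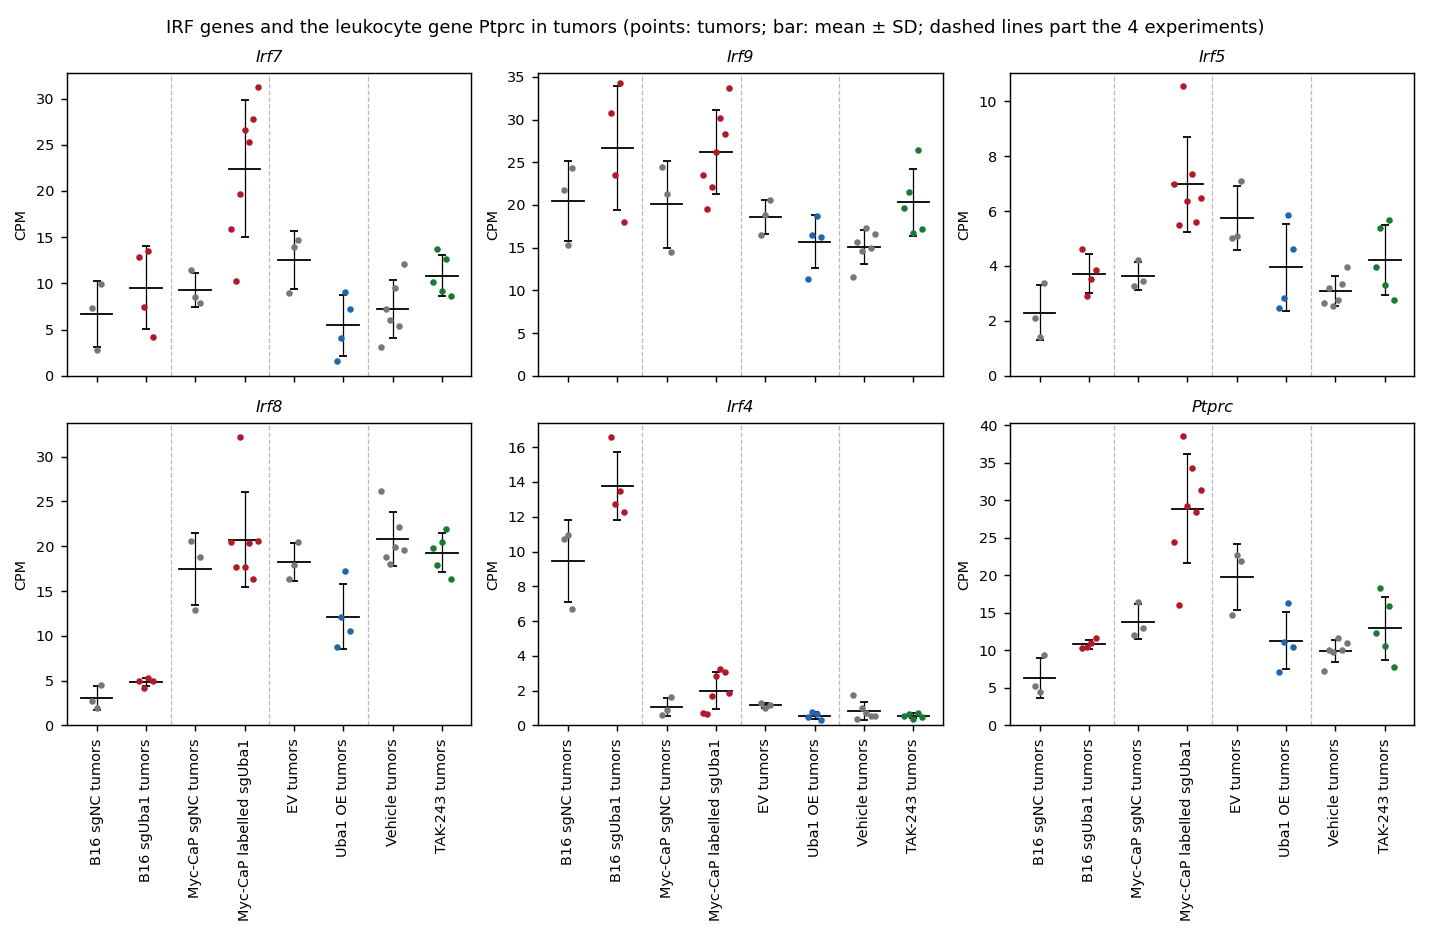
CPM (y axis, from 0) of 5 IRF genes and of the leukocyte gene Ptprc in the 8 tumor groups; points are tumors, bars the mean with its SD, and dashed lines part the experiments. Irf7 is highest in the Myc-CaP tumors labelled sgUba1, as is Ptprc, and Irf4 is highest in B16-BL6.

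The genes around the IRFs were counted from lists of the pathway. Among 8 receptors, kinases and STATs upstream, 2 were higher and 2 lower with IFN-γ in control cells of the TAK-243 experiment, and Stat2, the partner of IRF9, was one of the higher (0.72 ± 0.12, edgeR, adjusted p = 1.52e-05), beside 19.6% of all genes higher and 9.39% lower. With TAK-243 and no IFN-γ, 3 of the 8 were higher and 2 lower, near the 32.3% and 34% of all genes. The kinase gene Jak1 rose (1.51 ± 0.03, edgeR, adjusted p = 8.29e-26), as did Ifngr2, a chain of the IFN-γ receptor (1.11 ± 0.13, edgeR, adjusted p = 1.09e-08), whereas the kinase gene Jak2 fell (-0.54 ± 0.04, edgeR, adjusted p = 3.32e-12). In sgUba1 cells 6 of the 8 were higher and 0 lower without IFN-γ, beside 16.2% and 13.6% of all genes, among them Ifngr1, the other chain of that receptor (0.49 ± 0.08, edgeR, adjusted p = 0.000695), and Jak2 (0.44 ± 0.05, edgeR, adjusted p = 7.88e-05).

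Of 11 sensors, adaptors and kinases that lead to IRF3, IRF5 and IRF7, 5 were higher and 3 lower with TAK-243 alone, where 32.3% of all genes were higher and 34% lower. The adaptor Myd88 (1.25 ± 0.09, edgeR, adjusted p = 5.56e-13) and Sting1, the receptor for cyclic dinucleotides (1.24 ± 0.21, edgeR, adjusted p = 4.97e-06), were among the higher, and the kinases Irak1 (-1.02 ± 0.05, edgeR, adjusted p = 3.79e-17) and Irak4 (-1.24 ± 0.14, edgeR, adjusted p = 7.59e-09) among the lower. The co-repressors that bind IRF2, Irf2bp1, Irf2bp2 and Irf2bpl, were the 3 tested genes of 8 listed partners, and all 3 were lower with TAK-243 (-0.64, -0.99 and -1.25, edgeR, highest adjusted p = 2.33e-06), as were 34% of all genes. All 3 were also lower in sgUba1 cells with IFN-γ (-0.60, -0.20 and -0.20, edgeR, highest adjusted p = 0.00855), as were 22.4% of all genes, whereas without IFN-γ Irf2bpl was higher there (0.20, adjusted p = 0.00857).

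Of 8 genes that IRF3, IRF5, IRF7 and IRF8 drive in leukocytes, 3 passed the filter in the TAK-243 experiment. Il18bp, an inhibitor of IL-18, was higher with TAK-243 by 1.47 ± 0.16 (edgeR, adjusted p = 2.89e-09). The chemokine gene Ccl5 and the cytokine gene Tnf had no read in cells without TAK-243 and passed only through the arms with it, at means of 1.25 and 1.12 CPM with TAK-243 alone, so they are given as levels.

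Of 10 targets of IRF1 and IFN-γ, 8 were higher with IFN-γ in control cells and 4 of 9 tested in NC cells, where 19.6% and 3.03% of all genes were higher. In NC cells the peptide transporter gene Tap1 rose by 2.11 ± 0.24 (edgeR, adjusted p = 0.00163). In sgUba1 cells with IFN-γ 6 of 9 were higher than in NC cells with IFN-γ, beside 17% of all genes, among them Tap1 (1.96 ± 0.16, edgeR, adjusted p = 3.88e-06) and B2m, the light chain of MHC class I (0.72 ± 0.06, edgeR, adjusted p = 3.69e-06). With TAK-243 and IFN-γ, where 32% of all genes were higher and 36.2% lower, 6 of 10 were higher and 1, the immunoproteasome gene Psmb9, lower (-1.38 ± 0.28, edgeR, adjusted p = 5.72e-05). Targets of the complex of IRF9 split: with IFN-γ in control cells 2 of 7 tested were higher and 3 lower (19.6% and 9.39% of all genes), and in sgUba1 cells with IFN-γ 7 of 9 were higher and 0 lower (17% and 22.4% of all genes). In tumors 0 genes of these target lists were called, other than the chemokine gene Cxcl16 in the Myc-CaP tumors labelled sgUba1 (1.15 ± 0.24, edgeR, adjusted p = 0.0359). All 12 targets of the complex had a positive value in those tumors (median 0.75) and in the TAK-243 tumors (median 0.93), and 11 of 12 had a negative value in Uba1 OE tumors (median -0.85), with 0 called.

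The genes whose levels most resembled each member were ranked over the 35 tumors, after the mean of each tumor group was subtracted, among 15510 genes with a mean of at least 1 CPM. The points share libraries and tumor composition, so these coefficients are descriptions with no p. Irf7 was most like Oasl2 (Pearson r 0.94, Spearman rho 0.88), Rtp4 (0.93 and 0.91) and Usp18 (0.91 and 0.89), all 3 induced by type I interferon. With the 2 tumors farthest from the median of Irf7 left out, the r with Oasl2 was 0.92, and within the 4 experiments it ran from 0.85 to 0.98. Irf9 was most like Rtp4 (0.92 and 0.92), Irf7 (0.87 and 0.85) and Adar (0.85 and 0.84). For the pair of Irf9 and Irf7, r was 0.83 without the 2 farthest tumors and 0.79 to 0.98 within experiments. Irf1 was most like Dtx3l (0.81 and 0.75), Parp9 (0.77 and 0.70) and Parp14 (0.77 and 0.76).

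Irf5 resembled genes of leukocytes, Apbb1ip (0.86 and 0.80), Tlr13 (0.85 and 0.81) and Nckap1l (0.85 and 0.86), and within experiments r ran from 0.68 to 0.95 with Apbb1ip, 0.31 to 0.97 with Tlr13 and 0.52 to 0.98 with Nckap1l. Irf8 was most like Sdc3 (0.75 and 0.65), Psmb8 (0.71 and 0.50) and Emilin2 (0.70 and 0.56), and its r with Psmb8 ran from -0.07 to 0.92 within experiments. Irf2 was most like Fam193b (0.80 and 0.83), Klf4 (0.80 and 0.82) and Btg1 (0.78 and 0.84). For Irf3 (Vti1a, Rhbdf1 and D5Ertd579e, r 0.70 to 0.73) and Irf4 (Tspan14, Poldip3 and 1110038F14Rik, r 0.71 to 0.77) the likeness did not hold in each experiment, the lowest within-experiment r being -0.07 for Irf3 with Rhbdf1 and -0.70 for Irf4 with 1110038F14Rik. With Ptprc, r was 0.78 for Irf5, 0.67 for Irf7, 0.59 for Irf9, 0.51 for Irf8, 0.49 for Irf1, 0.21 for Irf3, 0.16 for Irf4 and -0.20 for Irf2.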

How the data were processed

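RNA-seq libraries were used, 35 of tumors and 16 of cultured Myc-CaP cells. The authors quantified transcripts with kallisto, mm10 being the build in the submitters' processing notes, and deposited gene tables of expected counts, which were rounded here to whole numbers, and of TPM. The labels describe poly-A selection, whereas the methods name ribosomal RNA depletion. How strand was set and the annotation release are not given in the sources used here.

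Each experiment was fitted on its own with edgeR 4.0.16 (quasi-likelihood test, TMM scaling, filterByExpr, R 4.3.3), and p-values were adjusted by Benjamini-Hochberg over all genes tested, with calls at an adjusted p under 0.05. In the cell experiments all 8 libraries shared a fit. The SE of a log2 fold change was taken as its size over the square root of the F statistic. Log2 fold changes used a prior count of 2. Alternatives were DESeq2 1.42.0, limma-voom and limma-trend on log2(TPM + 1) (limma 3.58.1), RLE scaling, no filter on low counts, the replicate number as a block, each library left out in turn and only the libraries compared. The scripts were tested on simulated counts. Replicates were separate libraries, none of the 75 replicate pairs being identical or within sampling noise (chi-square per degree of freedom at least 1.83). Library totals ran from 8651963 to 38032284 counts, so that 3 reads, the limit a count of 0 allows, were 0.0822 to 0.241 CPM in cells.

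The rule for the 8 members uses gene names only, but the members, the gene lists and the tests were chosen with earlier results of these data known. Named genes were the members, Uba1, genes of the lists beside a member's result and the 3 genes most like each member, and some genes of the rule and lists are not reported here. Promoter sequences were taken from RefSeq on GRCm38.p6 and matched for all 8 members by symbol, and protein sequences were not used here.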

Additional observations from a re-analysis of the deposited data

Results flagged for a closer look

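In 40 sets of 4 to 7 tumors, the 8 members in 5 tumor groups, a member's highest or lowest value was compared with its nearest neighbour, and 3 values stood apart by Dixon's criterion, which chance exceeds in about 1 of 20 sets. Irf1 was at 50.5 CPM in replicate 3 of the Uba1 OE tumors, with the nearest tumor at 40.5 CPM. Irf5 was at 10.6 CPM in replicate 3 of the Myc-CaP tumors labelled sgUba1, with the nearest at 7.36 CPM, and Irf8 was at 32.2 CPM in the same tumor, with the nearest at 20.6 CPM. Ptprc was highest in that tumor as well, at 38.6 CPM, and its part in these values was not tested.

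The step in Irf1 with IFN-γ differed between sgUba1 and NC cells, by an interaction of 0.96 ± 0.09 on the log2 scale (edgeR, adjusted p = 0.00089). Both sgUba1 libraries with IFN-γ, at 64.1 and 66.8 CPM, lay above both NC libraries with IFN-γ, at 37.6 and 38.1 CPM. The sgUba1 cells came from a single cell, so the clone and the guide cannot be told apart.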

How the results depend on the processing

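Over all alternatives, 1011 values of single members kept their direction and side of the threshold, 33 lost a call, 25 gained one and 45 changed sign. No value that edgeR had called changed sign. Of the counts of called members, 150 stayed within 1.5 times and 29 did not. Where no cause is named, the cause was not tested. The reads limit Irf4, Irf5 and Irf7 in cultured cells.

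In the Myc-CaP tumors labelled sgUba1, with 0 members called by edgeR, DESeq2 called 3 and RLE scaling 1, and leaving out 1 tumor at a time gave 0 to 2. In B16-BL6 tumors the count ran from 0 to 1 with 1 tumor left out. For TAK-243 in cells without IFN-γ, 5 members were called with Irf4, 3 on log2(TPM + 1) and 2 to 5 with 1 library left out. For IFN-γ in NC cells, 2 were called, 1 by DESeq2, by limma-voom, with RLE scaling and with only the 4 libraries compared, 0 on log2(TPM + 1) and 1 to 3 with 1 library left out. For sgUba1 cells without IFN-γ, 0 were called, 1 without the filter on low counts, 1 on log2(TPM + 1) and 0 to 1 with 1 library left out. For the interaction of sgUba1 and IFN-γ, 1 was called, 3 without that filter, 0 on log2(TPM + 1) and 1 to 3 with 1 library left out. A threshold of 1 TPM in place of 1 CPM put 4 members in place of 5 among those expressed in cells.

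The values that changed sign were uncalled log2 fold changes. On log2(TPM + 1), Irf2 was at -0.014 in B16-BL6 tumors, -0.12 in Uba1 OE tumors, -0.21 with IFN-γ in the cells of the TAK-243 experiment and -0.038 with TAK-243 alone. On that scale Irf3 was at -0.044 with IFN-γ in the same cells and at 0.070 in the TAK-243 interaction, Irf5 at 0.021 in OE tumors and Irf9 at 0.013 in sgUba1 cells without IFN-γ. By limma-voom, Irf4 was at 0.042 with IFN-γ in the TAK-243 experiment and at -0.032 in its interaction. Without the 4 Myc-CaP tumors of high Uba1, Irf3 was at -0.063.

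With 1 library left out at a time, Irf2 ran from -0.0072 to 0.099 in B16-BL6 tumors, from -0.040 to 0.079 in TAK-243 tumors, from -0.012 to 0.14 in TAK-243 cells, from -0.14 to 0.13 with IFN-γ in NC cells and from -0.11 to 0.16 in the sgUba1 interaction. Irf3 ran from -0.035 to 0.16 in the Myc-CaP guide tumors, from -0.12 to 0.020 in OE tumors, from -0.24 to 0.10 in the TAK-243 interaction and from -0.094 to 0.016 in sgUba1 cells. Irf1 ran from -0.098 to 0.43 in the Myc-CaP guide tumors and from -0.029 to 0.18 in the TAK-243 interaction. Irf4 ran from -0.52 to 0.63 with IFN-γ in the TAK-243 experiment and from -0.58 to 0.58 in its interaction, Irf9 from -0.025 to 0.41 in that interaction, and Irf8 from -0.049 to 0.21 in sgUba1 cells.

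The deviations of libraries with the same replicate number had correlations of -0.18 to 0.31. In B16-BL6 2 of 3 pairs and in TAK-243 tumors 1 of 5 were above 0.1, and no experiment had every pair above it, so the numbers were not taken to pair the samples. With the replicate block, 1 member in place of 0 was called in sgUba1 cells without IFN-γ, and no other count of called members left the range of 1.5 times. Uncalled values that changed sign with the block were Irf3 at -0.051 and Irf4 at -0.044 in the Myc-CaP guide tumors and Irf2 at -0.024 in TAK-243 tumors. Of all genes the block called 2 in place of 492 in the Myc-CaP guide tumors, 0 in place of 4 in OE tumors and 8 in place of 25 in TAK-243 tumors.

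Counts of all genes moved more than those of members. DESeq2 called 532 in place of 127 genes in B16-BL6, 1862 in place of 492 in Myc-CaP guide, 723 in place of 4 in OE and 558 in place of 25 in TAK-243 tumors, and limma-voom 300 in the Myc-CaP guide and 2 in the OE tumors. DESeq2 called 2651 in place of 4216 for IFN-γ in the TAK-243 experiment, 219 in place of 347 in its interaction and 395 in place of 603 for IFN-γ in NC cells, where RLE gave 292 and the 4 libraries alone 30. Without the filter the counts were 204 in B16-BL6, 33 in OE and 45 in TAK-243 tumors, 1460 for IFN-γ in NC cells and 1487 in place of 720 in the sgUba1 interaction, where RLE gave 414. On log2(TPM + 1) they were 254 in Myc-CaP guide and 1 in OE tumors, 1 in the TAK-243 interaction, 18 for IFN-γ in NC cells, 2618 in place of 4618 in sgUba1 cells without and 4037 in place of 6119 with IFN-γ, and 12 in the sgUba1 interaction. With 1 library left out they ran from 43 to 320 in B16-BL6, 10 to 692 in Myc-CaP guide, 0 to 386 in OE and 1 to 299 in TAK-243 tumors, 35 to 2721 for IFN-γ in NC cells, 85 to 329 in the TAK-243 interaction, 2932 to 5641 in sgUba1 cells without IFN-γ and 14 to 2622 in the sgUba1 interaction.

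On log2(TPM + 1) the share of calls that were higher went from 37.8% to 70.1% in the Myc-CaP guide tumors, 37% to 52% in B16-BL6, 60% to 38.9% in TAK-243 and 75% to 100% in OE tumors, 67.6% to 6.69% for IFN-γ in the TAK-243 experiment, 46.9% to 58.5% for TAK-243 with IFN-γ, 15.6% to 100% in the TAK-243 interaction and 14.3% to 83.3% in the sgUba1 interaction. RLE moved it from 77.9% to 65.8% for IFN-γ in NC cells. The median of all genes shifted by -0.18 for IFN-γ in the TAK-243 experiment and by 0.154 in its interaction on log2(TPM + 1), the same direction as the shifts of Irf2 and Irf3 there.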
